A study of Mus musculus with 6 samples.

Results

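The serum amyloid A, orosomucoid and haptoglobin genes examined here were the 10 listed acute phase protein genes *Saa1*, *Saa2*, *Saa3*, *Saa4*, *Orm1*, *Orm2*, *Orm3*, *Hp*, *Hpx* and *Itih4*. They were taken by symbol from a table of raw counts for 25184 mouse genes, and 10 of 10 were found and passed the filter on low counts. The libraries came from primary hepatocytes of chow-fed mice, isolated by enzymatic digestion and density gradient centrifugation and kept in culture overnight before RNA was taken. Of the 6 libraries, 3 came from *Sucnr1* fl/fl controls (replicates 1, 2 and 3) and 3 from Hep-*Sucnr1* KO mice (replicates 3, 4 and 5), and RNA was extracted on day 1 for *Sucnr1* fl/fl replicate 1 and KO replicate 3 and on day 2 for the other 4 libraries. Both genotypes carried the same floxed *Sucnr1* alleles. The KO mice were in addition *Alb-Cre*+/-, so that Cre was driven by the albumin promoter of hepatocytes, and the controls had no Cre, so that the loss of *Sucnr1* and the presence of Cre cannot be told apart. The age and sex of these mice are not given in the sources used here, and whether each library came from a separate animal is not stated, so that the spread between libraries may be partly technical. *Sucnr1*, which encodes the G protein-coupled receptor for extracellular succinate, was the gene the study removed, and the comparison of genotypes asks what its absence from hepatocytes changes.

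Library totals ranged from 30504248 to 38770694 counts. Levels below are CPM, a gene's counts scaled to a common library total, after scaling of the libraries by the trimmed mean of M values (TMM), a factor that allows for differences in RNA composition. *Sucnr1* was at 6.71, 3.55 and 3.40 CPM in *Sucnr1* fl/fl replicates 1, 2 and 3 and at 2.66, 0.827 and 0.152 CPM in KO replicates 3, 4 and 5. Every KO library was below every control, although KO replicate 3 was close to the lowest control, and an exact two-sided permutation test gave p = 0.1, the smallest value that 3 libraries against 3 allow. Hepatocyte markers were high throughout, with *Alb*, the gene for serum albumin, between 37120 and 68925 CPM.

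The acute phase response is the change in plasma proteins that follows infection or injury, and the hepatocyte is its main source. IL-6-type cytokines acting through STAT3, and IL-1 and TNF acting through NF-κB, raise transcription of positive acute phase genes, with C/EBPβ, C/EBPδ and glucocorticoids as co-activators. SAA1 and SAA2 travel on high-density lipoprotein, SAA3 is in mice also made by macrophages, adipocytes and other cells outside the liver, and SAA4 is the constitutive form. The orosomucoids, or α1-acid glycoproteins, are plasma lipocalins that carry basic and lipophilic small molecules. Haptoglobin captures free hemoglobin, hemopexin captures free heme, and ITIH4 is the acute phase heavy chain of the inter-α-trypsin inhibitor family.

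The genes lie in compact clusters. In the GRCm38 annotation, the *Saa* genes occupied chromosome 7 from 46711998 (*Saa3*, minus strand) through *Saa4* (46727998 to 46732603, minus strand) and *Saa1* (46740497 to 46742980, minus strand) to 46754313 (*Saa2*, plus strand), so that *Saa1* and *Saa2* are transcribed away from each other. The *Orm* genes lay on chromosome 4, all on the plus strand, in the order *Orm1* (63344560 to 63348163), *Orm3* (63356162 to 63359511) and *Orm2* (63362449 to 63365878). *Hpx* was on chromosome 7 (105591613 to 105600137, minus strand), *Hp* on chromosome 8 (109575128 to 109579172, minus strand) and *Itih4* on chromosome 14 (30886476 to 30902353, plus strand). All 10 are annotated as protein-coding.

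Promoter sequences of 5 of these genes show how alike the neighbours are and which letters they share. They are RefSeq sequences of GRCm38.p6, up to 250 bases that end at the start site or before the first annotated exon: *Saa1* at chr7:46742981-46743230 (minus strand), *Saa2* at chr7:46751583-46751789 (plus strand), *Saa3* at chr7:46715701-46715926 (minus strand), *Orm2* at chr4:63362199-63362448 (plus strand) and *Orm3* at chr4:63355908-63356157 (plus strand), each read 5′ to 3′ along the gene. Capitals mark matches to the motifs named in the next paragraph.
Saa1: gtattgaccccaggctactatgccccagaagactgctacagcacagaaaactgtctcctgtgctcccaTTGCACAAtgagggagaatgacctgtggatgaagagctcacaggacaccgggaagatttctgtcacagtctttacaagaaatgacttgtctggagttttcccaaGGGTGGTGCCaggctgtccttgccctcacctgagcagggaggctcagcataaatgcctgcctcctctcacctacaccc
Saa2: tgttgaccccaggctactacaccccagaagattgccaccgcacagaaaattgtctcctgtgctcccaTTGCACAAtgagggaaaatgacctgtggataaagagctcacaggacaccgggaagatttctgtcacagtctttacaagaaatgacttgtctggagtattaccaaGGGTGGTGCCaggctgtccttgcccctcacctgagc
Saa3: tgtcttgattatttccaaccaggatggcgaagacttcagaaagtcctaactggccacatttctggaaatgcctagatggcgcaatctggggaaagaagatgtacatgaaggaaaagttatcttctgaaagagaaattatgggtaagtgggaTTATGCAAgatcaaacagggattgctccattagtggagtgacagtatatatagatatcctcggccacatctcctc
Orm2: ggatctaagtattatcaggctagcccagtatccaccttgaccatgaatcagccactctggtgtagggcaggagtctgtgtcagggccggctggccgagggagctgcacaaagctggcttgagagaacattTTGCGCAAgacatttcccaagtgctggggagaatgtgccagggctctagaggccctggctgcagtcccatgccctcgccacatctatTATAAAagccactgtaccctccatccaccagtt
Orm3: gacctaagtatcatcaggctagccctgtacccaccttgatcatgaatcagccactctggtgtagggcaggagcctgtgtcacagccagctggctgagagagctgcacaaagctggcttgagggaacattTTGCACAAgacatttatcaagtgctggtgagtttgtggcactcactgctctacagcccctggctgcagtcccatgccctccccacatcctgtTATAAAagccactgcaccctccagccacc

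A window was found for 8 of the 10 members, *Orm1* and *Hp* being the others. The *Saa1* and *Saa2* promoters were identical at 195 of 206 aligned bases (94.7%), and those of *Orm2* and *Orm3* at 218 of 245 (89.0%). *Saa3* was 64.2% identical to *Saa1* over 212 aligned bases. The letters TTGCNNAA, of the kind bound by C/EBP factors, were searched on both strands and were present in 7 of the 8 windows, all but that of *Itih4*. They are present in 9.56% of 32851 promoter windows of 250 bases across the genome. The match was TTGCACAA at 182 to 175 bases upstream of the start in *Saa1* and at 183 to 176 in *Saa2*, TTATGCAA at 99 to 92 in *Saa3*, TTGCGCAA at 120 to 113 in *Orm2* and TTGCACAA at 121 to 114 in *Orm3*. A TATA box (TATAAA, same strand only) was found in *Orm2* at 33 to 28 and in *Orm3* at 29 to 24 bases upstream, against 7.59% of all windows. The windows of *Saa2*, *Saa3* and *Hpx* were cut at an annotated exon, to 207, 226 and 229 bases. The bases nearest their start sites were therefore not searched, so a missing match there, such as a TATA box in *Saa2*, carries no meaning. The STAT-type letters TTCNNNGAA were found in *Itih4* only, against 7.02% of all windows, and the loose NF-κB-type letters GGGNNNNNCC in 4 of 8 windows, among them *Saa1* and *Saa2*, against 45.8% of all windows. The motifs did not overlap one another in the printed windows. They were chosen after the sequences had been seen, and a match is a run of letters, not a shown binding site.

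*Saa1* and *Saa2* were higher in all 3 KO libraries than in any control. *Saa1* was at 1427, 1154 and 1537 CPM in *Sucnr1* fl/fl replicates 1, 2 and 3 and at 2720, 1895 and 1936 CPM in KO replicates 3, 4 and 5. The means were 1373 ± 197 and 2184 ± 465 CPM (SD, n = 3 each), a ratio of 1.59. *Saa2* followed the same order, at 1230, 1019 and 1355 CPM in the controls and 2441, 1802 and 1762 CPM in the KO libraries, with means of 1201 ± 170 and 2001 ± 381 CPM and a ratio of 1.67. In both genes KO replicate 3, extracted on day 1, stood above the other KO libraries, which were close to each other. The ratio of *Saa1* to *Saa2* was between 1.05 and 1.16 in all 6 libraries. Their main transcripts are identical at 94.4% of 606 aligned bases, and 14.8% of the 50-base windows of *Saa1* and 13.3% of those of *Saa2* occur in another gene, so the split of reads between the pair is uncertain. Summed to 1 row, they gave a log2 fold change (KO against fl/fl, with extraction day in the model) of 0.68 (SE 0.19).

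*Saa3* varied more between libraries than any other member. It was at 36.7, 69.6 and 93.2 CPM in the controls and at 61.0, 218 and 76.8 CPM in KO replicates 3, 4 and 5, with means of 66.5 ± 28.4 and 119 ± 86.7 CPM (SD, n = 3 each). The groups overlapped, since only KO replicate 4 lay above the highest control. *Saa4* was at 149, 173 and 139 CPM in the controls and 172, 282 and 203 CPM in the KO libraries (154 ± 17.3 and 219 ± 56.9 CPM). KO replicate 3 lay just below the highest control, so *Saa4* also overlapped. Between the 2 minor family members, KO replicate 4 was the highest library for both.

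Within the family, *Saa1* made up 45.1 to 50.4% and *Saa2* 42.2 to 45.3% of the *Saa* counts of a library. *Saa4* made up 3.18 to 7.16%. The share of *Saa3* ran from 1.13% in KO replicate 3 to 5.21% in KO replicate 4, and the controls lay between, at 1.29, 2.88 and 2.98%. The widest 95% Wilson interval of a share within a family was ± 0.345 percentage points, which covers counting error only.

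*Orm1*, the most abundant orosomucoid transcript, was at 1092, 1149 and 1282 CPM in the controls and at 1639, 1394 and 1624 CPM in KO replicates 3, 4 and 5. The means were 1174 ± 97.4 and 1552 ± 137 CPM (SD, n = 3 each), a ratio of 1.32, and the groups did not overlap. *Orm2* was at 104, 156 and 155 CPM in the controls and at 270, 215 and 160 CPM in the KO libraries (138 ± 29.5 and 215 ± 54.6 CPM, ratio 1.56). These groups were separate by a narrow margin, KO replicate 5 lying only just above control replicate 2. *Orm3* was present at a few CPM, at 4.08, 5.96 and 7.06 in the controls and at 9.46, 9.81 and 9.56 in the KO libraries (5.70 ± 1.50 and 9.61 ± 0.175 CPM, ratio 1.69). The 3 KO libraries were nearly equal for *Orm3*, on 299 to 332 counts, and the controls, on 157 to 214 counts, were spread below them.

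Of all *Orm* counts in a library, *Orm1* took 85.5 to 91.0%, *Orm2* 8.67 to 14.1% and *Orm3* 0.340 to 0.606%. The *Orm1* and *Orm2* transcripts are identical at 91.0% of 775 aligned bases, and 20.4% of the 50-base windows of *Orm1* and 22.7% of those of *Orm2* occur in another gene. *Orm3* shares 3.59% of its windows, and shares the most with *Orm2*. The counts of *Orm2* were far higher, at 4000 to 8514 per library against 157 to 332 for *Orm3*. The part of the low *Orm3* count that came from reads of the others was not measured. The 3 genes summed to 1 row gave a log2 fold change of 0.43 (SE 0.16).

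*Hp*, which encodes haptoglobin, showed the clearest separation among the abundant members. It was at 4928, 4719 and 5242 CPM in the controls and at 6780, 6415 and 6611 CPM in KO replicates 3, 4 and 5, with means of 4963 ± 264 and 6602 ± 183 CPM (SD, n = 3 each) and a ratio of 1.33. The gap between the groups was wider than the range within either of them. *Hpx*, which encodes hemopexin, was at 6647, 6282 and 7353 CPM in the controls and at 9520, 7138 and 10480 CPM in the KO libraries (6761 ± 544 and 9046 ± 1721 CPM, ratio 1.34). KO replicate 4 fell within the range of the controls and the other KO libraries lay above it. *Itih4* was at 1878, 1595 and 1652 CPM in the controls and at 2330, 1762 and 2065 CPM in the KO libraries (1708 ± 150 and 2052 ± 285 CPM, ratio 1.20), again with KO replicate 4 inside the range of the controls. None of the 50-base windows of *Hp*, *Hpx* or *Itih4* occurs in another gene.

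**Figure D1:**
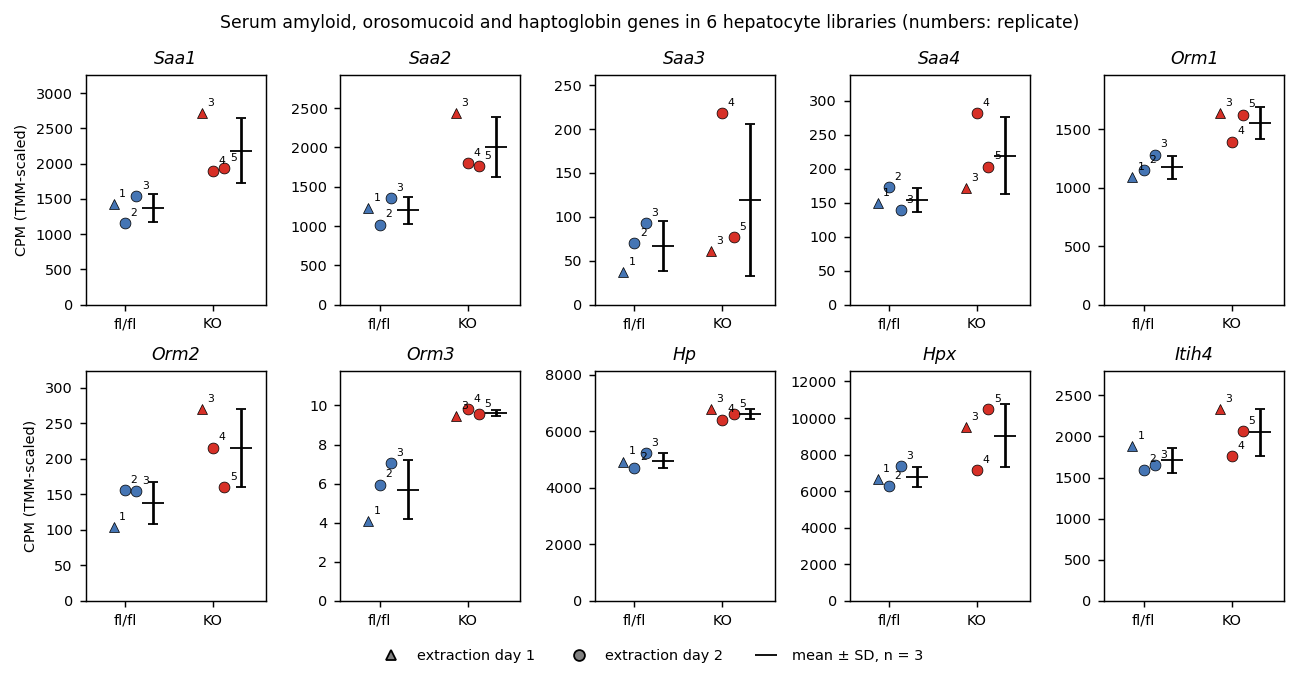
Each panel plots 1 gene in TMM-scaled CPM (linear axis from 0) for the 3 Sucnr1 fl/fl (blue) and 3 Hep-Sucnr1 KO (red) libraries, with the replicate number beside each point, triangles for extraction day 1, circles for day 2, and the mean ± SD (n = 3) at the right of each group. The groups are separate for Saa1, Saa2, Orm1, Orm2, Orm3 and Hp and overlap for Saa3, Saa4, Hpx and Itih4.

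Across genotypes, the members were 6 genes with every KO library above every control (*Saa1*, *Saa2*, *Orm1*, *Orm2*, *Orm3* and *Hp*) and 4 that overlapped. Of 15105 genes tested, 6.54% had every KO library above every control and 4.04% every KO library below. These genes were selected on the genotype difference measured in these same libraries, so their genotype fold changes and counts describe the choice and nothing is read from the comparison with the background. Together the 10 genes made up 1.73, 1.78 and 1.79% of all counts in the controls. They made up 2.65, 2.09 and 2.39% in KO replicates 3, 4 and 5. The 95% Wilson interval of each share was at most ± 0.00566 percentage points. It covers counting error only, and the libraries of a genotype differed from each other by more than that. In the fit with extraction day, the genotype log2 fold changes were 0.65 (SE 0.18) for *Saa1*, 0.72 (SE 0.18) for *Saa2*, 0.82 (SE 0.36) for *Saa3* and 0.49 (SE 0.18) for *Saa4*. In the orosomucoids they were 0.40 (SE 0.15) for *Orm1*, 0.64 (SE 0.25) for *Orm2* and 0.78 (SE 0.18) for *Orm3*. The remaining values were 0.41 (SE 0.16) for *Hp*, 0.42 (SE 0.21) for *Hpx* and 0.26 (SE 0.15) for *Itih4*. All 10 values were above 0, with a median of 0.56, where 50.5% of the genes tested were above 0 and the median of all was 0.003.

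No member had a genotype false discovery rate (FDR) below 0.05 by edgeR (quasi-likelihood, adjusted after Benjamini and Hochberg), and neither did any of the 15105 genes (0%), *Sucnr1* included. At an unadjusted p below 0.05 there were 7 members among 563 genes (3.73%). DESeq2 on the same genes called 7 genes (0.0463%), *Sucnr1* among them (log2 fold change -2.31, adjusted p = 0.0386), and no member. With DESeq2's independent filtering, added after the data had been seen, 13 of 2806 genes (0.463%) passed and *Saa2* was the 1 member among them.

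Single libraries weighed on several of these values. Without KO replicate 4 the log2 fold change of *Saa3* was 0.27 and that of *Saa4* 0.30. *Orm2* came to 0.27 without KO replicate 3 and to 0.28 without control replicate 1, the day 1 libraries. *Hpx* came to 0.26 without KO replicate 5. *Hp* was the steadiest, at 0.38 to 0.46 whichever library was left out. The library names in the labels carry index numbers 39 and 40 for control replicates 1 and 2 and 85 to 88 for the other 4 libraries. With this split as a further term, chosen after the data had been seen, *Saa1* came to 0.35, *Saa2* to 0.42, *Orm1* to 0.26 and *Hpx* to 0.27, while *Saa4* came to 0.76, so that index and genotype cannot be fully told apart.

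**Figure D2:**
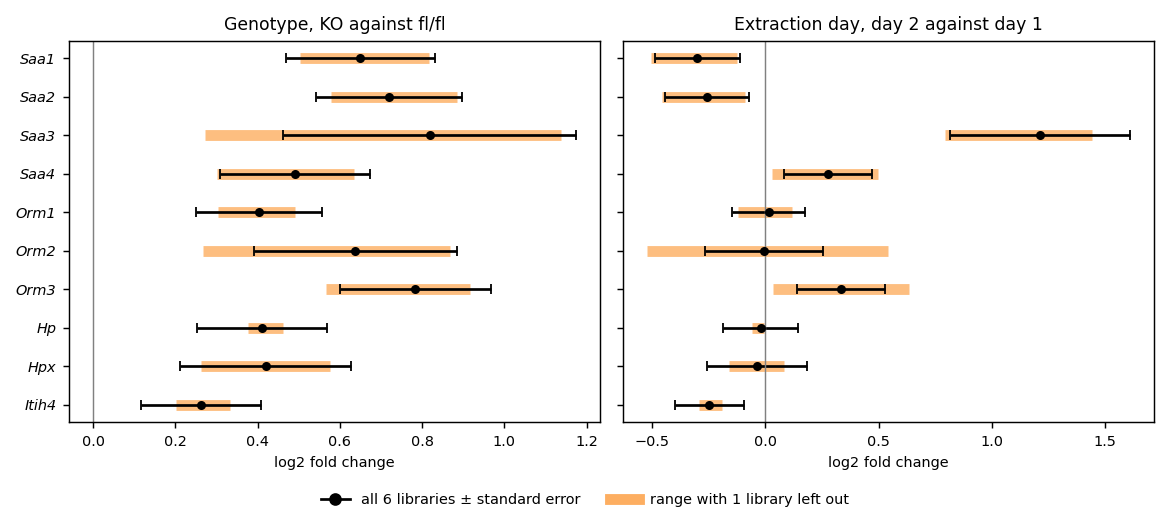
Log2 fold changes of the 10 genes for genotype (left, KO against fl/fl) and extraction day (right, day 2 against day 1) are drawn as points with standard errors from the fit to all 6 libraries, and orange bars span the values obtained with 1 library left out. The genotype values run from 0.26 for Itih4 to 0.82 for Saa3, and Saa3 has the only day value beyond 1 (1.21).

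Extraction day was not used to choose the members and was tested in the same model. The day log2 fold changes (day 2 against day 1) were above 0 for 4 members and below 0 for 6, with a median of -0.01, where 53.3% of all genes were above 0. No member passed an FDR of 0.05 in edgeR, nor did any other gene (0%). At an unadjusted p below 0.05 there was 1 member, *Saa3*, among 1132 genes (7.49%, of which 5.16% higher and 2.33% lower on day 2), and DESeq2 called 220 genes (1.46%) and no member. *Saa3* was at 36.7 and 61.0 CPM in the day 1 libraries and between 69.6 and 218 CPM in the day 2 libraries, which did not overlap. Over all genes, 8.51% had every day 2 library above every day 1 library and 6.29% the reverse. Its log2 fold change was 1.21 (SE 0.40, edgeR FDR 0.548), and 0.79 without KO replicate 4. For *Saa1* and *Saa2* the day values were -0.30 (SE 0.19) and -0.26 (SE 0.19), and for *Hp* -0.02 (SE 0.17).

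Within each day the KO libraries were also compared with their controls. Day 1 held a single library per genotype, so there was no spread to set against the ratios, and all 10 genes were higher in the KO library, by a ratio of 1.15 (*Saa4*) to 2.59 (*Orm2*). On day 2, all 10 were higher in the mean of the 2 KO libraries than in that of the 2 controls, by 1.18 (*Itih4*) to 1.81 (*Saa3*). Both days are parts of the libraries whose genotype difference chose the genes, so these directions are a description. The ratio was larger on day 1 for 8 genes and on day 2 for *Saa3* and *Saa4*. On the log2 scale *Orm2* differed the most between days, with ratios of 2.59 on day 1 and 1.21 on day 2, followed by *Orm3* at 2.32 and 1.49. *Saa4*, at 1.15 and 1.55, went the other way by about as much as *Saa1* (1.91 and 1.42) and *Saa2* (1.98 and 1.50) differed. *Hp* was at 1.38 and 1.31. A test of the difference between days, the interaction of genotype with day, gave no FDR below 0.05 for any member or any gene in edgeR (0%), where DESeq2 called 4 genes (0.0265%) and no member. *Orm2* alone had an unadjusted p below 0.05 (log2 difference -1.10, SE 0.33, edgeR FDR 1.00), as had 3.69% of all genes (2.68% with a positive and 1.01% with a negative difference).

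Members that are high in 1 library tended to be high together, but not all in the same one. KO replicate 3 held the highest value of 6 members, KO replicate 4 that of *Saa3*, *Saa4* and *Orm3*, and KO replicate 5 that of *Hpx*. All 10 minima were in control libraries, 4 of them in replicate 1, 5 in replicate 2 and 1 in replicate 3. Over the 6 libraries, Pearson's r of log2 CPM was above 0 in 43 of 45 pairs and above 0.8 in 14, with a median of 0.743. These points share libraries and the genotype difference that chose the genes, so the values are a description. *Saa1* and *Saa2* had the highest r (0.995, Spearman's rho 0.943, and r = 0.994 without the 2 libraries farthest from the median of *Saa1*). *Saa1* and *Hp*, on different chromosomes, ranked the 6 libraries in the same order (r = 0.923, rho = 1.00, and 0.999 without the 2 farthest). *Saa3* and *Itih4* had the lowest r (-0.294, rho = -0.371, and -0.596 without the 2 farthest).

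**Figure D3:**
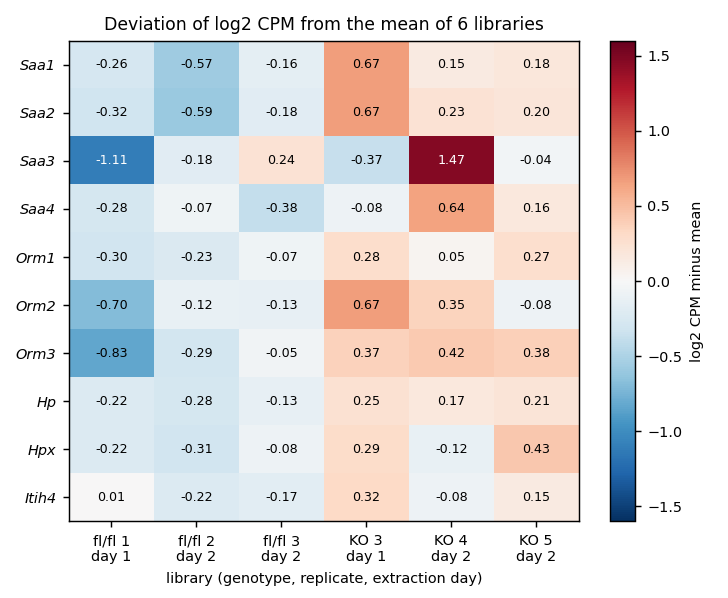
The heat map gives the deviation of each gene's log2 CPM from its mean over the 6 libraries, in columns of library and extraction day and rows of genes, with the value written in each cell. Saa3 in KO replicate 4 (1.47) and in fl/fl replicate 1 (-1.11) are the largest deviations, and Hp stays between -0.28 and 0.25.

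After genotype and day were taken out, the remaining spread of *Hp* (residual SD 0.0688 in log2 CPM) was at percentile 5.55 of the 15105 genes and that of *Itih4* (0.0992) at percentile 13.4. *Saa1* and *Saa2* were near the middle, at percentiles 46.3 and 45.3. *Saa3* (0.639) was at percentile 88.3 and *Orm2* (0.410) at percentile 74.4.

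Other genes were ranked by how closely their log2 CPM followed the mean profile of the 10 members over the 6 libraries, among 7057 genes with a mean of at least 10 CPM. The 8 nearest were *Rps18*, *Mrpl28*, *Gm6139*, *Gm11687*, *Wfdc21*, *Rbx1*, *Ndufs6* and *Gm12922*, with r from 0.999 to 0.988. Genotype log2 fold changes were 0.18 for *Rps18*, a ribosomal protein gene, and 0.26 for *Mrpl28*, a mitochondrial ribosomal protein gene, and 0.61 for *Wfdc21*. *Wfdc21* was at 139, 150 and 169 CPM in the controls and at 249, 232 and 216 CPM in the KO libraries. The 8 genes nearest to *Saa3* were *Cisd2*, *Tab2*, *Tsg101*, *Tmem243*, *Poldip2*, *Klc4*, *Dop1b* and *Gm43302*, with r from 0.989 to 0.966. *Gm43302* was the only gene of these 8 that varied as widely as *Saa3*, from 5.25 CPM in control replicate 1 to 46.3 CPM in KO replicate 4. These likenesses rest on 6 libraries and on the genotype difference that the members share, and carry no test.

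Levels of different genes were compared per kb of exon. On CPM per kb of all annotated exons, the means over 6 libraries were 5273 ± 1130 for *Hpx*, 3601 ± 573 for *Hp*, 1759 ± 300 for *Orm1*, 718 ± 221 for *Saa1*, 636 ± 203 for *Saa2* and 510 ± 75.1 for *Itih4* (SD, n = 6). Lower down came *Orm2* at 228 ± 74.3, *Saa4* at 89.0 ± 24.7, *Saa3* at 35.5 ± 24.7 and *Orm3* at 9.90 ± 3.04 CPM per kb. The ranges of the 6 libraries overlapped between *Hpx* and *Hp*, from *Saa1* through *Itih4*, and from *Orm2* through *Saa3*, so the order within these runs is not set beyond the spread. *Orm1* and *Orm3* each stood clear of their neighbours. The longest protein-coding transcript covers 609 of 2478 annotated exon bases of *Saa1* and 652 of 2518 of *Saa2*. On that length their levels were 2920 ± 899 and 2456 ± 784 CPM per kb, above *Orm1* on the same scale, with ranges that overlapped *Hp* and *Orm1*. *Saa3* was divided by 2606 exon bases or by the 2200 of its longest protein-coding transcript. Its main transcript has 555 bases, a length on which no level was computed, so its place may also depend on the length.

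**Figure D4:**
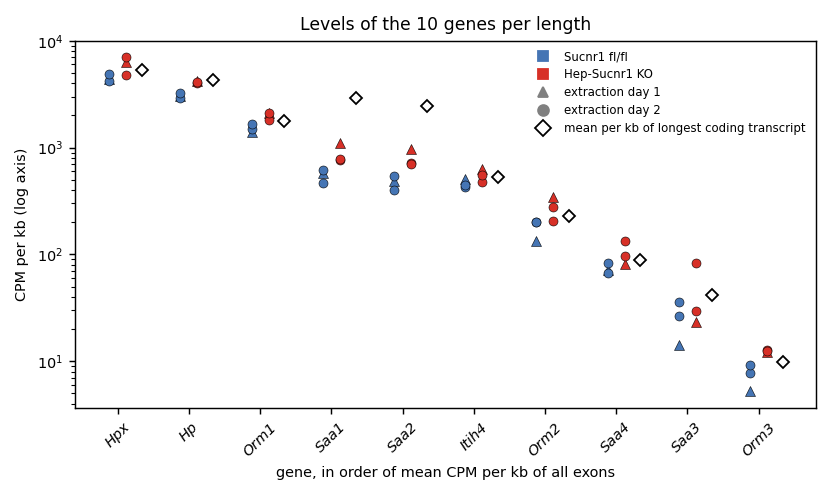
Points give CPM per kb of all annotated exons (log axis) for each library, blue for Sucnr1 fl/fl and red for Hep-Sucnr1 KO, triangles for day 1 and circles for day 2, with genes in order of their mean, and open diamonds give the mean per kb of the longest protein-coding transcript. The range runs from Hpx (5273) to Orm3 (9.90), and Saa1, Saa2 and Orm1 are the genes whose place differs between the lengths shown.

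Beside the members, 21 other positive acute phase genes were measured, a list also drawn up with earlier results of these data known. Their genotype log2 fold changes were above 0 for 18 and below 0 for 3, with a median of 0.19, and 5 of 21 (23.8%) had every KO library above every control, against 6.54% of all genes. *Fgl1*, which encodes the hepatocyte-secreted fibrinogen-like protein, was the highest, at 138, 214 and 187 CPM in the controls and 487, 340 and 350 CPM in the KO libraries (log2 fold change 1.12, SE 0.23). *Lbp*, the gene for lipopolysaccharide binding protein, was at 87.3, 94.0 and 116 CPM against 137, 162 and 173 CPM (0.67, SE 0.12), and *Apcs*, the gene for serum amyloid P, was at 97.7, 104 and 91.1 CPM against 156, 117 and 130 CPM (0.45, SE 0.13). *Lcn2*, which encodes lipocalin 2, overlapped between the groups (349, 423 and 665 CPM against 566, 792 and 767). None of the 21 passed an FDR of 0.05 in edgeR and 4 had an unadjusted p below 0.05, against 3.73% of all genes, while DESeq2 called *Lbp* (adjusted p = 0.0202) and *Fgl1* (adjusted p = 0.0127). *Cfb*, the gene for complement factor B, was the lowest at -0.09. *Fgl1*, *Lbp*, *Lcn2* and *Apcs* had the highest log2 fold changes of the list. The KO library was higher for 14 and lower for 7 of the 21 on day 1. On day 2 the KO mean was higher for 20 and lower for 1.

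The 11 negative acute phase genes, which code for plasma proteins that decline in the acute phase, were split 6 above and 5 below 0 with a median of 0.004, from 0.16 for *Trf* (transferrin) to -0.19 for *Alb*. Of the inter-α-trypsin inhibitor family, 5 genes other than *Itih4* had values from 0.19 (*Itih3*) to -0.11 (*Itih2*), with *Ambp*, which encodes the light chain bikunin, at 0.13. None of these passed the test or had an unadjusted p below 0.05.

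Genes upstream of the acute phase proteins had genotype medians near 0. Among 9 cytokine ligand genes, 7 passed the filter and *Osm* and *Il22* did not, and 4 were above and 3 below 0 with a median of 0.02, from 0.39 (*Tnf*) to -1.14 (*Il11*, at 1.01 CPM or less). *Il6* was at 0.338, 0.301 and 1.52 CPM in the controls and at 0.0950, 1.98 and 1.15 CPM in KO replicates 3, 4 and 5, and *Il1b* was at 2.60, 2.80 and 11.0 CPM against 0.823, 11.4 and 9.78 CPM. KO replicate 3, which held the highest *Saa1*, *Saa2*, *Orm1*, *Orm2* and *Hp* values, also held the lowest *Il6* and *Il1b*, on 3 and 26 counts. It is a day 1 library, and *Il6* and *Il1b* had day log2 fold changes of 2.39 (SE 0.87) and 2.33 (SE 0.72). A link between the members and these ligands was not tested. The 7 receptor genes had a median of -0.02, from 0.20 (*Osmr*) to -0.17 (*Il6st*), and *Il6ra* was at -0.01. For the 12 kinases and transcription factors, 3 were above and 9 below 0 with a median of -0.11, with *Cebpd* at 0.33, *Cebpb* at -0.02 and *Stat3* at -0.16. The 8 feedback targets had a median of 0.08, with *Socs3*, the STAT3-induced inhibitor of IL-6 signalling, at 0.003. Values near 0 in these lists can join opposite days. The KO library was lower for 7 of 8 feedback targets and 6 of 7 ligands on day 1, and the KO mean was higher for 7 of 8 and 6 of 7 on day 2. *Socs3* had a ratio of 0.686 on day 1 and 1.21 on day 2. In the interaction test no gene of these lists passed an FDR of 0.05 in edgeR, and 4 of 8 feedback targets, 1 of 12 kinases and transcription factors and none of the ligands and receptors had an unadjusted p below 0.05, against 3.69% of all genes. The 10 genes for receptors and clearance of the member proteins had 5 above and 5 below 0 and a median of 0.03, with *Hmox1*, which degrades heme, at 0.07, *Lrp1*, the receptor for hemopexin-heme, at -0.01 and *Cd163*, the receptor for haptoglobin-hemoglobin, at -0.62 on 1.29 CPM or less. No gene of these lists passed an FDR of 0.05 in edgeR, or an adjusted p of 0.05 in DESeq2 on the same genes, for genotype, and none had an unadjusted edgeR p below 0.05.

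**Figure D5:**
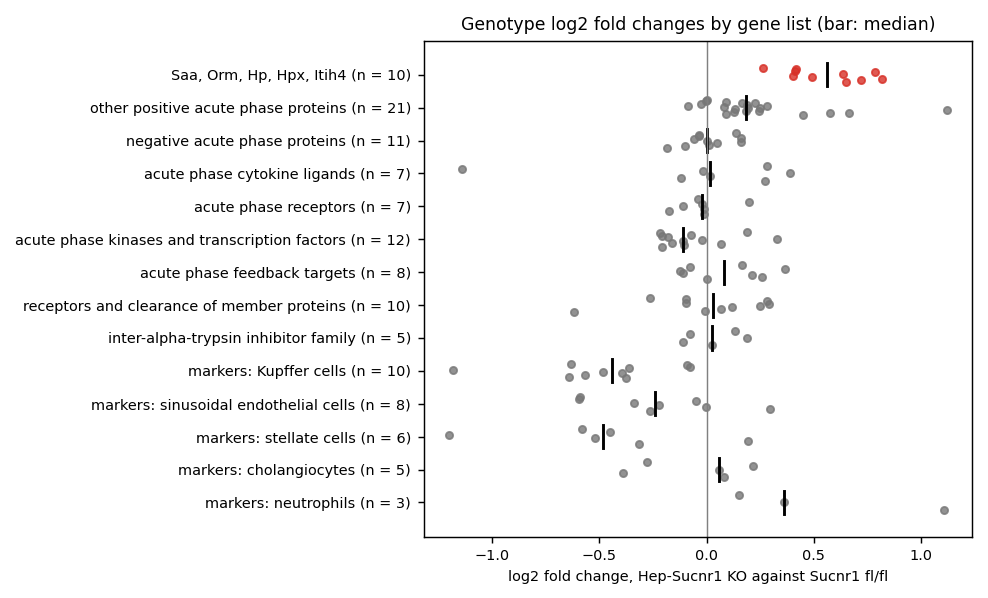
Genotype log2 fold changes (KO against fl/fl) are plotted as points for each gene that passed the filter, by gene list, with a bar at the median of each list. The 10 members (red) have a median of 0.56, the other positive acute phase proteins 0.19 and the negative acute phase proteins 0.004.

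Markers of other liver cells were measurable, and those of Kupffer cells, the liver's resident macrophages, had larger fitted log2 fold changes for extraction day than for genotype. The summed level of 10 Kupffer cell markers was 79.0, 51.5 and 163 CPM in the controls and 36.0, 125 and 116 CPM in the KO libraries, ranges that overlapped (exact two-sided permutation p = 0.9, with 0.1 the smallest possible), and none of the 10 was at 0 in every library. The days overlapped too, at 79.0 and 36.0 CPM on day 1 and 51.5, 163, 125 and 116 CPM on day 2. Of the 10 markers, *Cd68* alone gave 39.1, 18.6 and 40.7 CPM in the controls and 29.0, 24.3 and 39.3 CPM in the KO libraries. It made up most of the lowest sum, that of KO replicate 3. In the day fit, 9 of 10 were higher on day 2 with a median log2 fold change of 2.02, and none passed an FDR of 0.05 in edgeR, 6 having an unadjusted p below 0.05. In the genotype fit 10 of 10 had values below 0, with a median of -0.44, but the days went opposite ways. The KO library was lower for 10 of 10 on day 1 and the KO mean was higher for 8 of 10 on day 2, 5 of 10 had a higher plain KO mean, and in the interaction test none passed an FDR of 0.05 in edgeR and 4 had an unadjusted p below 0.05. *Clec4f*, a Kupffer cell lectin, was at 7.91, 8.09 and 25.2 CPM in the controls and 1.90, 24.8 and 15.7 CPM in the KO libraries. *Saa3*, which macrophages can make, had r = 0.490 with the summed markers over 6 libraries (rho = 0.771, and 0.643 without the 2 farthest). The highest *Saa3* was in KO replicate 4, with a Kupffer marker sum of 125 CPM. The highest sum was in control replicate 3, at 163 CPM. For *Saa1* and *Saa2*, r was -0.209 and -0.169 (rho = -0.0857 and -0.0286). Without the 2 farthest libraries r was 0.304 and 0.322, so the sign was not stable. KO replicate 3 combined the lowest Kupffer sum with the highest *Saa1* and *Saa2*, and a link between them was not tested. In these bulk libraries, fewer cells of a type and less RNA per cell cannot be told apart, and the part of other cell types in the values of *Saa3* was not tested.

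Summed neutrophil markers were between 0.791 and 6.05 CPM, with 3 of 7 past the filter and *Ly6g*, *Mpo* and *Elane* at or near 0. The 3 past the filter were above 0 in the genotype fit, with a median of 0.36. They ran from 1.11 for *S100a8*, at 0.857 CPM or less, to 0.15 for *Csf3r*, and 0 had an unadjusted p below 0.05. In the day fit they were also above 0, with a median of 2.57. Adipocyte markers summed to between 8.21 and 15.2 CPM, with 2 of 5 past the filter and *Adipoq* at or near 0. The sums ranged from 22.3 to 50.2 CPM for 8 sinusoidal endothelial markers, from 8.92 to 36.6 CPM for 8 stellate cell markers and from 350 to 651 CPM for 6 cholangiocyte markers, the last almost wholly from *Spp1* and *Sox9*. The genotype ranges overlapped for each of these sums and for that of 10 hepatocyte markers, which lay between 55771 and 86281 CPM. In the genotype fit, endothelial markers were below 0 for 7 of 8 (median -0.24) and stellate cell markers for 5 of 6 (median -0.48), with every KO library below every control for *Pecam1* (-0.59, SE 0.26) and *Reln* (-1.20, SE 0.42), as for 4.04% of all genes. None passed an FDR of 0.05 in edgeR, and *Reln* had an unadjusted p below 0.05. The part of these cells in the members' genotype values was not tested.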

How the data were processed

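Poly(A) mRNA was sequenced from 6 primary hepatocyte libraries (3 *Sucnr1* fl/fl, 3 Hep-*Sucnr1* KO) with a stranded paired-end kit. The authors trimmed reads with Trim Galore 0.6.7, aligned them to GRCm38 with STAR 2.7.10a and deposited raw counts per Ensembl gene from featureCounts in paired-end, reverse-strand mode, and the treatment of reads with several matches is not given in the sources used here. Columns of other samples numbered 0. Symbols were found for 25130 of 25184 identifiers in the GENCODE annotation of the same build, which also gave exon lengths.

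Genotype was tested with edgeR 4.0.16 (R 4.3.3; TMM scaling, quasi-likelihood test, extraction day as covariate) on the 15105 genes with a mean DESeq2-normalized count above 5, and p-values were adjusted over all of them at a threshold of 0.05. SE is the log2 fold change divided by the square root of F. Extraction day came from the same fit and the interaction from a fit with that term. DESeq2 1.42.0 with the same model was the alternative. The study used DESeq2 with extraction date as covariate for its differential analysis, and reported gene set enrichment on the fold changes. The pericentral set, which the study reported as enriched in KO hepatocytes, included *Saa2*, *Saa3* and *Orm2*. The scripts were checked on simulated data. Deviations and correlations used log2 CPM with a prior count of 2, and summed levels were compared by exact permutation (SciPy 1.17.1). Pairs of sequences were aligned with Biopython 1.88.

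The members and gene lists were chosen with earlier results of these data known, so genotype values of the members are given as a description. Genes named were the 10 members, *Sucnr1*, 16 preset pathway and marker genes, the highest and lowest gene of each list, and the 8 genes nearest to the mean member profile and to *Saa3*. The lists were other positive and negative acute phase proteins, cytokine ligands, receptors, kinases and transcription factors, feedback targets, receptors and clearance of the proteins, the inter-α-trypsin inhibitor family, and markers of 7 cell types.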

Additional observations from a re-analysis of the deposited data

How the results depend on the processing

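The members were chosen on the genotype difference in these same libraries, so the signs of their values describe that choice and carry no independent support. The genotype log2 fold changes of all 10 members stayed above 0 under every alternative run, which were DESeq2, its size factors, library size alone, no filter, edgeR's own filter, no covariate, a robust fit, day 2 libraries only, summed paralogs, the index split as a further term, and each library left out. Their median of 0.56 came to 0.38 with the index split as a term, 0.44 in the day 2 libraries and 0.43 over 7 rows with paralogs summed, and ranged from 0.44 to 0.63 with 1 library left out. Counts of genes past 0.05 were 0 in edgeR for genotype, day and interaction. DESeq2 gave 7, 220 and 4, and with independent filtering 13, 227 and 4. Without a filter edgeR gave 122 for day. With 1 library left out edgeR gave 0 for genotype, 0 to 29 for day (29 without *Sucnr1* fl/fl replicate 2) and 0 to 1 for the interaction (1 without KO replicate 4 and 1 without KO replicate 5), and the causes were not tested. The interaction could not be fitted without a day 1 library. The median of all genes moved by less than 0.1 in each setting. No paired analysis was possible because the genotypes share only replicate number 3, which is day 2 in the controls and day 1 in the KO libraries.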
